A study of Mus musculus with 22 samples.

Results

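The transcripts described are 9 genes of Fc gamma receptor and immunoreceptor tyrosine-based activation motif (ITAM) signalling, Fcgr1, Fcgr2b, Fcgr3, Fcgr4, Clec7a, Sirpa, Tyrobp, Syk and Btk. They were taken by name from the 655 endogenous genes of a mouse myeloid panel, and all 9 were found and were among the 420 genes tested. The panel was read on a NanoString nCounter, which counts transcripts through fluorescent barcodes, in 22 RNA samples of granulocytic myeloid-derived suppressor cells (G-MDSCs), which resemble neutrophils and can hold back T cells. All samples came from female FVB-Neu-N mice, a strain with rat neu expressed from the MMTV promoter, that were 7 to 8 weeks old when implanted in the mammary fat pad with 50000 NT2.5 cells, a line derived from a spontaneous mammary tumour of this model. Treatment began 3 days later and lasted 3 weeks, and the cells were then selected from the dissociated tumours as Ly6G-positive cells over 2 column passes.

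Of the 5 groups, 4 received entinostat, which blocks histone deacetylases of class I, by mouth every day at 5 mg/kg in 0.5% methylcellulose. Entinostat was given alone (4 samples, numbered 1 to 4), with the checkpoint antibody anti-PD-1 (4 samples, again 1 to 4), with the checkpoint antibody anti-CTLA-4 (4 samples, a, 1, b and 3), or with both antibodies, here the triple combination (4 samples, a, b, 2 and 4). Each antibody was given at 100 µg per mouse and 2 times a week. The vehicle group (6 samples, 1 to 4, V1 and V2) received methylcellulose and isotype antibodies. Neither antibody was given without entinostat in these groups. The protocol mentions an anti-HER2 antibody given in some studies and does not say which applies to these samples. The labels do not tie a sample to an animal, so a p-value here covers the spread between the samples only, and that spread may be technical. In bulk RNA of this kind, fewer cells of a type and less RNA per cell cannot be told apart.

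Fc gamma receptors bind the constant part of IgG and so let a myeloid cell respond to targets coated with antibody. The activating receptors signal through an ITAM, carried by an adaptor chain, to which the kinase Syk binds once the motif is phosphorylated, and Fcgr2b opposes them through an inhibitory motif (ITIM) that recruits phosphatases. In neutrophils and macrophages this pathway drives phagocytosis, the oxidative burst and degranulation.

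The promoters of the Fc receptor genes are shown because these genes share a pathway while Fcgr2b has the opposite sign of signal. Promoter windows from 150 bases before to 30 bases after the annotated start were taken from RefSeq (build GRCm38.p6), where 7 of the 9 genes, all but Sirpa and Tyrobp, were matched by symbol. Each line below reads 5′ to 3′ in the direction of the gene, and capitals mark GAGGAA or its reverse complement TTCCTC, the core bound by the myeloid factor PU.1, and TTCNNNGAA, the palindrome bound by STAT factors.
Fcgr1 (chr3:96293940-96294119, minus strand): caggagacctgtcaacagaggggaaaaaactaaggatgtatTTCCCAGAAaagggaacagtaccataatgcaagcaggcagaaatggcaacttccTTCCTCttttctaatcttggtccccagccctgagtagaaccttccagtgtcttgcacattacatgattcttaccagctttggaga
Fcgr3 (chr1:171059374-171059553, minus strand): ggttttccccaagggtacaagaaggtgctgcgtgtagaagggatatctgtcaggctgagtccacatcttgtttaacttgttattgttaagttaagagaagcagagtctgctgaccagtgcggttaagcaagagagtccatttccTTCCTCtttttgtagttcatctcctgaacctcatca
Fcgr4 (chr1:171018776-171018955, plus strand): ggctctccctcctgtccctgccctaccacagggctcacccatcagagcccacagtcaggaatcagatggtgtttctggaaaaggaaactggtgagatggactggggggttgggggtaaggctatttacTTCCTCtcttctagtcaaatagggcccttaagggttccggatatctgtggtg
Fcgr2b (chr1:170976042-170976221, minus strand): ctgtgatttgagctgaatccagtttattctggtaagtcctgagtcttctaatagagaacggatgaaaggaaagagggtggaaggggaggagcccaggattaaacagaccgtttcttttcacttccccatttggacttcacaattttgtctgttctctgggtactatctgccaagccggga
The PU.1 core letters were found, on either strand, in at least 1 window of 6 of the 7 genes, all but Fcgr2b, and in 19.7% of the 27025 genes with windows of the same length. The exception of Fcgr2b holds for GAGGAA and TTCCTC only, since its window does hold the shorter letters GGAA and TTCC. The STAT letters were found in 1 of the 7 genes, Fcgr1, and in 5.72% of all genes. The 2 searched motifs did not overlap in any of these windows. A match of letters is a description of the window and not a binding site.

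Levels are given in normalized counts on the linear scale as deposited, and a limit of 29.3 normalized counts, the mean of the negative-control probes plus 2 SD in log2 units, is taken as background. Fold changes are differences of log2(normalized count + 1), given with the standard error (SE). Adjusted p-values are limma's, two-sided, after Benjamini-Hochberg adjustment over all 420 genes. A gene is said to have risen or fallen where the adjusted p was under 0.05. Levels are not compared between genes, since each has its own probe. The samples held 23296 to 443871 barcode counts (median 179364). The shallowest was triple combination sample 2, in which 1 barcode count was worth 9.78 normalized counts. With entinostat alone 1 barcode count was worth 1.77 to 2.32 normalized counts, and in vehicle 0.78 to 1.72. The negative controls averaged 7.31 to 16.5 normalized counts per sample with entinostat alone and 4.66 to 7.04 in vehicle. Why the scaling differed between samples was not tested. The column names of the samples open with 2 different dates and numbers. The 2 sets are taken here as 2 cartridges, which no label states. The first held the 4 samples with anti-PD-1 as the sole antibody, the 4 with entinostat alone, triple combination sample a and vehicle samples 1, 2 and 4, and the second held the rest. Vehicle samples 2 and 3 lay above the other 4 vehicle samples for all 9 members, and sample a of entinostat plus anti-CTLA-4 above the other 3 of its group. Triple combination sample a was read in lane 3 of the first cartridge, between vehicle samples 2 and 4, and vehicle sample 3 in lane 8 of the second, after the triple combination samples. The labels were kept, whether these 2 were exchanged was not tested. Sirpa, Tyrobp, Syk, Clec7a, Fcgr2b and Fcgr3 were above the limit in 22 of 22 samples, whereas Fcgr4 was below it in anti-CTLA-4 samples 1 and b, which were deep and held 53 and 40 Fcgr4 barcode counts against means of 6.25 and 3.38 in their own negative controls. Fcgr1 was above it in 3 entinostat, 2 anti-PD-1, 1 anti-CTLA-4 and 2 triple combination samples and 2 vehicle samples, and Btk in 4, 4, 1 and 2 samples of these treated groups and 1 vehicle sample.

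The label of the cells was set against marker genes. S100a8 and S100a9, the calprotectin subunits of neutrophils, reached at least 1079 and 1959 normalized counts in every sample. Cxcr2, Csf3r and Mmp9 were above the limit in 22 of 22. Of the other neutrophil genes on the panel, Fpr2 was above the limit in 20 samples, Fpr1 in 11 and Elane in 4. Camp was above the limit in 3, Mmp8 in 2 and Mpo in 1. Ly6g, the gene of the antigen used for selection, was above it in 1 of 22 samples (highest value 30.2). Cdh1, the epithelial cadherin and the only epithelial marker of the list on the panel, lay between 717 and 1310 normalized counts in all samples. The macrophage gene C1qa lay between 74.9 and 900.4, and C1qb, C1qc, Csf1r and Apoe were also above the limit in 22 of 22 samples. Of the other monocyte and macrophage genes, Cx3cr1 was above the limit in 20 samples, Adgre1 in 16 and Mrc1 in 14. Mertk was above the limit in 7, Marco in 4 and Ccr2 in 1. The B cell gene Ms4a1 stayed below the limit in all samples (highest value 19.6).

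Entinostat alone was compared with vehicle to ask what the drug did to the pathway in these cells. Fcgr3, Fcgr4, Clec7a, Sirpa, Tyrobp, Syk and Btk rose, and Fcgr1 and Fcgr2b did not pass the test. These 7 of 9 members stand beside 36.2% of all 420 genes called higher in this comparison (152 genes). The median log2 fold change was 1.25 over the 9 members and 0.50 over all genes tested.

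Among the receptors, Fcgr3 encodes a low-affinity activating receptor that needs the common gamma chain. It had 184, 269, 289.8 and 207 normalized counts in entinostat samples 1 to 4, against a lowest value of 58.4, a median of 79.9 and a highest value of 272 in vehicle. Vehicle sample 2 alone lay within the range of the entinostat samples, and the log2 fold change was 1.23 ± 0.40 (SE, adjusted p = 0.0223). Fcgr4, a receptor of intermediate affinity found in neutrophils and monocytes, had 92.1, 114, 143 and 103 normalized counts after entinostat, against a lowest value of 31.1, a median of 39.9 and a highest value of 107 in vehicle, and the log2 fold change was 1.25 ± 0.38 (SE, adjusted p = 0.0178). All 4 entinostat samples lay above the vehicle mean, and again vehicle sample 2 was the only one to reach them.

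Fcgr2b, the inhibitory receptor, had 301, 757, 314 and 193 normalized counts in the entinostat samples, against a lowest value of 85.0, a median of 118 and a highest value of 726 in vehicle. The vehicle group was split, with vehicle samples 2 and 3 at 726 and 626 and the other 4 at 129 or less, and its range held all but 1 of the entinostat samples. The log2 fold change of 0.81 ± 0.61 (SE, adjusted p = 0.281) did not pass. Fcgr1, the high-affinity receptor, had 31.9, 39.5, 43.3 and 27.0 normalized counts after entinostat, against a lowest value of 7.76, a median of 17.1 and a highest value of 57.6 in vehicle, values that straddle the background limit and overlap between the groups (0.73 ± 0.63 (SE, adjusted p = 0.348)). The extracellular parts of mouse Fcgr2b and Fcgr3 are closely alike, and how far their probes tell them apart was not tested.

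Clec7a encodes Dectin-1, a receptor for fungal beta-glucan that carries a hemITAM of its own and engages Syk without an Fc receptor. It stood at 532, 573, 574 and 373 normalized counts in the entinostat samples, against a lowest value of 88.5, a median of 133 and a highest value of 394 in vehicle, and the log2 fold change was 1.67 ± 0.45 (SE, adjusted p = 0.0106). Here 3 of 4 entinostat samples exceeded every vehicle sample. Tyrobp, the ITAM adaptor DAP12 that serves Trem and other receptors, had 1715, 1987, 2038 and 1239 normalized counts after entinostat, against a lowest value of 336, a median of 449 and a highest value of 1512 in vehicle, and its log2 fold change was 1.55 ± 0.45 (SE, adjusted p = 0.0144).

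Both kinases rose. Syk, which docks on phosphorylated ITAMs, had 462, 478, 465 and 409 normalized counts in the entinostat samples, against a lowest value of 81.5, a median of 107 and a highest value of 342 in vehicle. It was the only member whose ranges did not overlap between these groups, and the share of all genes without overlap was not counted. The log2 fold change of Syk was 1.68 ± 0.42 (SE, adjusted p = 0.00911). Btk, a Tec family kinase downstream of Syk that feeds calcium signalling, had 31.9, 97.5, 92.2 and 38.2 normalized counts after entinostat, against a lowest value of 7.61, a median of 15.1 and a highest value of 51.7 in vehicle, where 5 of 6 samples were below the background limit. Its log2 fold change was 1.76 ± 0.53 (SE, adjusted p = 0.0175). Btk, like Fcgr1, passed the filter on low values only through treated groups, its vehicle mean lying below the limit, so the size of this fold is not fixed, and of the other 8 members 6 rose. Sirpa, an inhibitory receptor for CD47 that restrains phagocytosis through an ITIM, had 377, 557, 502 and 359.8 normalized counts after entinostat, against a lowest value of 127, a median of 147 and a highest value of 421 in vehicle, and the log2 fold change was 1.17 ± 0.38 (SE, adjusted p = 0.0218). Vehicle samples 2 and 3 lay within its entinostat range.

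**Figure D1:**
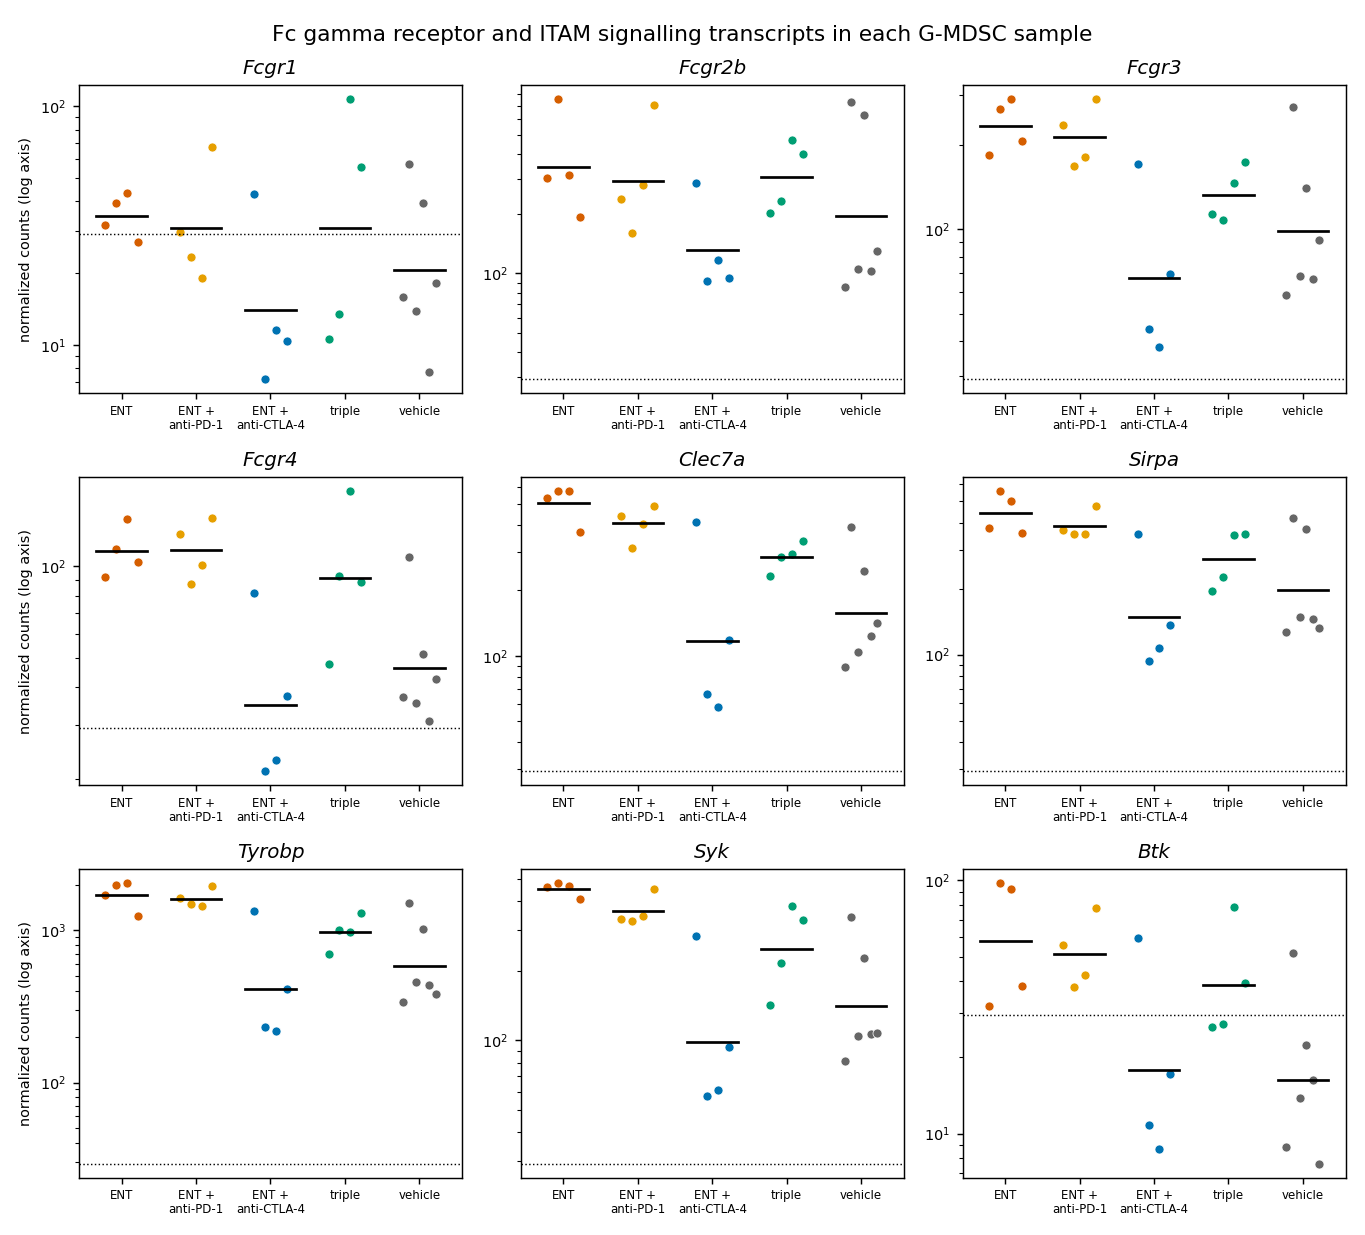
Normalized counts (log axes) of the 9 transcripts in each of the 22 samples, one panel per gene. Points are samples, black lines are group means taken on the log2 scale, the dotted line is the background limit of 29.3, and ENT is entinostat. Syk is the only panel in which all samples of entinostat alone lie above all 6 vehicle samples. How many of all genes share this was not counted. In every panel 1 anti-CTLA-4 sample, sample a, sits above the other 3.

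Limits of this comparison lie in single samples and in scaling. The count of members that rose was 3 without entinostat sample 3, 4 without entinostat sample 2 and 1 without vehicle samples V1 and V2, and within the first cartridge, which holds 3 vehicle samples, it was 5, while without vehicle sample 2 or without vehicle sample 3 it was 7. Centring each sample on the pan-leukocyte genes Ptprc, Laptm5 and Itgb2, or adding Cdh1 as a covariate, left 0 of 9. The log2 fold changes under the pan-leukocyte centring ran from -0.71 for Fcgr1 to 0.32 for Btk. All 3 centring genes rose and Cdh1 fell in this same comparison, and Ptprc and Itgb2 also stand in the pathway lists below. These 2 adjustments therefore cannot tell a change of scaling from one with treatment.

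The wider leukocyte signal moved with the members. Of the 12 neutrophil markers on the panel 8 were tested and all 8 rose with entinostat alone against vehicle, as did 3 of 3 pan-leukocyte genes, while 0 of 8 tested monocyte and macrophage genes passed. The 12 neutrophil genes summed to between 20247 and 39653 normalized counts in entinostat samples, against 5622 to 24033 in vehicle. The 11 monocyte and macrophage genes summed to between 1572 and 5646 after entinostat, against 808 to 5748 in vehicle. Ptprc, the pan-leukocyte phosphatase CD45, rose by 1.52 ± 0.36 (SE, adjusted p = 0.00796) on the log2 scale, whereas the epithelial gene Cdh1 changed by -0.41 ± 0.15 (SE, adjusted p = 0.0418). The list median of the monocyte and macrophage genes was 0.62. Of 3 tested endothelial genes 2 rose, with a list median of 2.22, of 2 dendritic cell genes 1 rose, with a median of 1.00, and of 4 genes of fibroblasts and matrix 1 was higher and 1 lower, with a median of 0.97. The part of these marker genes in the members' change was not tested.

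Other genes of the pathway were taken from lists of activating receptors, of kinases, of adaptors, and of inhibitory receptors with phosphatases and ligand. Among other activating receptors and their integrin partners, 5 of 5 tested genes rose, with Trem1, a DAP12-linked amplifier of neutrophil inflammation, at 1.80 ± 0.42 (SE, adjusted p = 0.00796) and Clec5a, another DAP12-linked receptor, at 1.63 ± 0.45 (SE, adjusted p = 0.0118). The integrin chains Itgam and Itgb2, which together form the complement receptor Mac-1, changed by 1.26 ± 0.41 (SE, adjusted p = 0.0212) and 1.31 ± 0.45 (SE, adjusted p = 0.0262). Of 9 tested adaptors and effectors 6 rose, with a list median of 0.89, and the clearest was Vav1, an exchange factor for Rac, at 1.40 ± 0.39 (SE, adjusted p = 0.0118). Malt1 and Bcl10, which form the complex that carries Syk signals from Dectin-1 to NF-kappaB, rose by 0.54 ± 0.15 (SE, adjusted p = 0.0119) and 0.50 ± 0.15 (SE, adjusted p = 0.0142). Of 2 tested genes in the list of inhibitory receptors, phosphatases and ligand 1 rose, Ptprc, which is there as a phosphatase. Of 4 tested kinases 1 rose, Pik3cg, a PI3 kinase of leukocytes, by 1.34 ± 0.33 (SE, adjusted p = 0.00904), and the broadly expressed Src family kinases Fyn and Yes1 changed by -0.24 ± 0.11 (SE, adjusted p = 0.084) and -0.074 ± 0.15 (SE, adjusted p = 0.7).

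The same question was asked of entinostat plus anti-PD-1. Fcgr4, Clec7a, Tyrobp, Syk and Btk rose, 5 of 9 members beside 20.5% of all genes called higher (86 genes), and the members' median log2 fold change was 1.27 against 0.29 over all genes. Tyrobp had 1621, 1490.4, 1435 and 1957 normalized counts in samples 1 to 4 of entinostat plus anti-PD-1 and a log2 fold change over vehicle of 1.46 ± 0.45 (SE, adjusted p = 0.0293). Syk had 335, 328, 345 and 449.7 normalized counts there, with a log2 fold change of 1.36 ± 0.42 (SE, adjusted p = 0.0316). Only vehicle sample 2 reached the lowest of these samples for either gene.

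Fcgr4 with 127, 87.6, 101 and 144 normalized counts changed by 1.27 ± 0.38 (SE, adjusted p = 0.0289) on the log2 scale. Clec7a with 443, 315, 405 and 489 changed by 1.36 ± 0.45 (SE, adjusted p = 0.0375), and 3 of 4 samples lay above every vehicle sample. Btk with 55.4, 38.0, 42.2 and 77.8 changed by 1.60 ± 0.53 (SE, adjusted p = 0.0394). The vehicle mean of Btk lay below the background limit, so the size of this fold is not fixed. The other members that rose were Fcgr4, Clec7a, Tyrobp and Syk. Fcgr3, with 235, 168, 180.3 and 291 normalized counts, and Sirpa, with 371, 356, 354 and 474, had log2 fold changes of 1.10 ± 0.40 (SE, adjusted p = 0.0572) and 0.97 ± 0.38 (SE, adjusted p = 0.072) and did not pass, and neither did Fcgr1, with 29.9, 23.4, 19.2 and 67.7, or Fcgr2b, with 236, 159, 280.0 and 702, whose log2 fold changes were 0.57 ± 0.63 (SE, adjusted p = 0.536) and 0.59 ± 0.61 (SE, adjusted p = 0.514). Of the other pathway genes 3 of 5 tested activating receptors rose, 2 of 9 adaptors and effectors and 1 of 4 kinases. In the list of inhibitory receptors, phosphatases and ligand 1 of 2 rose. A kinase, Fyn, fell by 0.32 ± 0.11 (SE, adjusted p = 0.049) on the log2 scale. The neutrophil genes rose in 7 of 8 tested members and the pan-leukocyte genes in 2 of 3. Sample 4 was the highest of the group for all 9 members, at 702 normalized counts of Fcgr2b and 898 of C1qa.

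The 5 calls against vehicle were near the threshold. Leaving out vehicle sample 1, 4, V1 or V2, or sample 1, 2 or 4 of entinostat plus anti-PD-1, left 0 of 9, leaving out its sample 3 left 2, leaving out vehicle sample 2 or 3 gave 7, and 0 were left within the first cartridge or with the cartridge as a block. The log2 fold changes of the 5 were 1.36 to 1.59 with the block (adjusted p = 0.0508 to 0.0759) and 1.10 to 1.40 within the first cartridge (adjusted p = 0.076 to 0.129). Set directly against entinostat alone, 0 of 9 members and 0 of 420 genes (0%) were called for entinostat plus anti-PD-1 by limma, with 0 members and 7 genes at an unadjusted p under 0.05, and edgeR and DESeq2 also called 0 members.

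Entinostat plus anti-CTLA-4 was set against entinostat alone to ask what the second agent added. Fcgr3, Fcgr4, Clec7a, Sirpa, Tyrobp, Syk and Btk fell, 7 of 9 members beside 42.6% of all genes called lower (179 genes). The median log2 fold change was -1.64 over the members and -0.67 over all genes. In samples a, 1, b and 3 of entinostat plus anti-CTLA-4 Syk had 284, 57.6, 60.9 and 93.3 normalized counts, all below the entinostat range of 409 to 478, with a log2 fold change of -2.19 ± 0.46 (SE, adjusted p = 0.00257). Tyrobp had 1337, 233, 219 and 413 normalized counts there, against 1715, 1987, 2038 and 1239 after entinostat alone, and its log2 fold change was -2.06 ± 0.49 (SE, adjusted p = 0.00375).

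Sample a stood apart from the other 3 for every member. The scaling differed too, 1 barcode count being worth 1.48 normalized counts in sample a and 0.40, 0.58 and 0.61 in samples 1, b and 3. In barcode counts Sirpa had 240, 235, 185 and 222 in samples a, 1, b and 3, and Tyrobp 905, 582, 378 and 673. Entinostat samples 1 to 4 had 213, 240, 267 and 160 for Sirpa, and 968, 856, 1083 and 551 for Tyrobp. Clec7a had 415, 66.3, 58.0 and 119 normalized counts in samples a, 1, b and 3, against 532, 573, 574 and 373 after entinostat alone, and its log2 fold change was -2.10 ± 0.49 (SE, adjusted p = 0.00353). Fcgr3 had 171, 44.4, 38.3 and 69.4, against 184, 269, 289.8 and 207, and Fcgr4 had 81.2, 21.2, 23.2 and 37.5, against 92.1, 114, 143 and 103. These ranges did not overlap for Fcgr3, Fcgr4, Sirpa and Syk, and the share of all genes without overlap was not counted. The log2 fold changes of both Fc receptors were -1.78 ± 0.44 (SE, adjusted p = 0.00448) and -1.64 ± 0.42 (SE, adjusted p = 0.00523). Sirpa had 355, 93.9, 107 and 136 normalized counts and changed by -1.56 ± 0.41 (SE, adjusted p = 0.0064), and Btk had 59.1, 10.8, 8.70 and 17.2 and changed by -1.64 ± 0.58 (SE, adjusted p = 0.0291). With anti-CTLA-4 the mean of Btk on the log2 scale lay below the background limit and 1 of 4 samples above it, so the size of that fold is not fixed, and of the other 8 members 6 fell.

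Fcgr2b had 287, 91.5, 117 and 94.6 normalized counts with anti-CTLA-4, and its log2 fold change from entinostat alone was -1.39 ± 0.67 (SE, adjusted p = 0.0926). Fcgr1 had 42.8, 7.20, 11.6 and 10.4, with 1 of 4 samples above the background limit, and its log2 fold change was -1.25 ± 0.68 (SE, adjusted p = 0.134). Both did not pass with all samples, and without sample a all 9 members fell. The share of all genes that fell without sample a was not counted. The call of Btk was lost without any 1 of entinostat samples 2 and 3 or anti-CTLA-4 samples 1, b and 3.

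**Figure D2:**
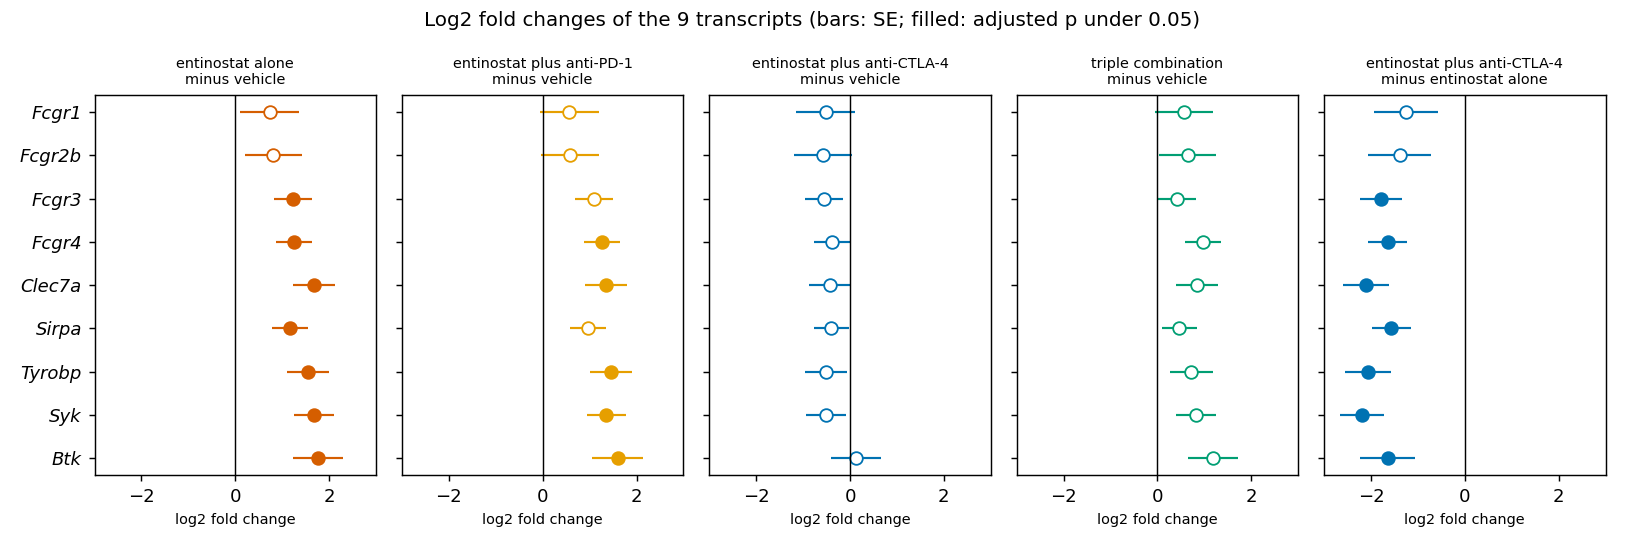
Log2 fold changes (x axes) of the 9 transcripts in 4 treated groups against vehicle and, at the right, in entinostat plus anti-CTLA-4 against entinostat alone. Bars are standard errors and filled points have an adjusted p under 0.05 in limma. Fcgr1 and Fcgr2b are open in all 5 panels, and the anti-CTLA-4 panel against vehicle has no filled point.

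Entinostat plus anti-CTLA-4 was run on the second cartridge and entinostat alone on the first, so cartridge and treatment cannot be told apart except through the vehicle and triple combination samples that lay on both. With the cartridge as a block 6 of 9 members fell, Btk being lost (adjusted p = 0.119), and under pan-leukocyte centring or with Cdh1 as a covariate 0 did. The genes used for those 2 adjustments themselves changed in this comparison, so the adjustments cannot tell scaling from treatment. The neutrophil genes fell in 8 of 8 tested members and the pan-leukocyte genes in 3 of 3, with Ptprc at -2.04 ± 0.40 (SE, adjusted p = 0.00257), while Cdh1 rose by 0.46 ± 0.17 (SE, adjusted p = 0.0348) and 0 of 8 monocyte and macrophage genes passed, with a list median of -1.28. Of 3 endothelial genes 2 fell, with a list median of -2.42, of 2 dendritic cell genes 1 fell, with a median of -1.34, and of 4 genes of fibroblasts and matrix 1 was higher and 1 lower, with a median of -1.40. The neutrophil genes summed to between 3356 and 21380 normalized counts with anti-CTLA-4, against 20247 to 39653 after entinostat alone. The part of these markers in the fall was not tested.

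Other pathway genes fell with them. Of the other activating receptors 5 of 5 fell, led by Trem1 at -2.16 ± 0.46 (SE, adjusted p = 0.00257) and Clec5a at -2.17 ± 0.49 (SE, adjusted p = 0.0032), and of the adaptors and effectors 8 of 9, with Vav1 at -2.11 ± 0.43 (SE, adjusted p = 0.00257) and the actin regulator Was at -1.66 ± 0.37 (SE, adjusted p = 0.00294). Pik3cg changed by -1.94 ± 0.36 (SE, adjusted p = 0.00257). Fyn was the one kinase called higher, at 0.31 ± 0.12 (SE, adjusted p = 0.0429).

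Against vehicle, entinostat plus anti-CTLA-4 gave 0 of 9 members and 0 of 420 genes (0%) in limma, with 0 members and 6 genes at an unadjusted p under 0.05, and 0 members in edgeR and DESeq2. Within the second cartridge, with 3 vehicle samples, limma also called 0 members. The log2 fold changes ran from -0.58 for Fcgr2b to 0.12 for Btk, with Syk at -0.51 ± 0.42 (SE, adjusted p = 0.96) and Tyrobp at -0.51 ± 0.45 (SE, adjusted p = 0.96). Samples 1 and b were below every vehicle sample for Fcgr3, Fcgr4, Clec7a, Sirpa, Tyrobp and Syk, while sample a lay above the vehicle median for all 9 members.

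Compared with the anti-PD-1 pair of drugs, entinostat plus anti-CTLA-4 had 6 of 9 members lower (all but Fcgr1, Fcgr2b and Btk), beside 29.5% of all genes (124 genes). That count was 3 without anti-CTLA-4 sample 1 or sample b, and 0 with the cartridge as a block, where the log2 fold changes of the 6 were -1.56 to -2.20 with adjusted p-values of 0.0501 to 0.0641. Of the other pathway genes 4 of 5 tested activating receptors and 4 of 9 adaptors and effectors were lower. Averaged over the 4 entinostat groups as a main effect of anti-CTLA-4, the same 6 members were lower, beside 30% of all genes (126 genes), and again 0 with the cartridge as a block, where their log2 fold changes were -1.13 to -1.65 with adjusted p-values of 0.0643 to 0.0876.

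In the triple combination no member passed the test against vehicle. Syk had 142, 216, 381 and 331 normalized counts in samples a, b, 2 and 4 of the triple combination, against a lowest value of 81.5, a median of 107 and a highest value of 342 in vehicle, and the log2 fold change was 0.83 ± 0.42 (SE, adjusted p = 0.338). Tyrobp had 702, 1001, 968 and 1294 normalized counts and changed by 0.73 ± 0.45 (SE, adjusted p = 0.388). Fcgr4 had 47.6, 93.0, 176 and 88.9, the highest value being that of the shallow sample 2, and changed by 0.97 ± 0.38 (SE, adjusted p = 0.32).

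Clec7a had 233, 284, 293 and 339 normalized counts in the triple combination and changed from vehicle by 0.84 ± 0.45 (SE, adjusted p = 0.34). Fcgr3 had 113, 108, 147 and 174 and changed by 0.42 ± 0.40 (SE, adjusted p = 0.505). Fcgr2b had 201, 232, 469 and 399 and changed by 0.64 ± 0.61 (SE, adjusted p = 0.505). All 4 samples lay above the vehicle median for these genes, but within the vehicle range. Sirpa had 195, 227, 352 and 355 normalized counts, with a log2 fold change of 0.47 ± 0.38 (SE, adjusted p = 0.453). Fcgr1 had 10.6, 13.5, 108 and 55.8 normalized counts and changed by 0.56 ± 0.63 (SE, adjusted p = 0.56), and Btk had 26.4, 27.1, 78.2 and 39.3 and changed by 1.19 ± 0.53 (SE, adjusted p = 0.333). In both the highest value, in sample 2, rested on few barcode counts, 11 for Fcgr1 and 8 for Btk.

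Against vehicle limma called 0 of 9 members and 0 of 420 genes (0%) in the triple combination, with 2 members, Fcgr4 and Btk, and 59 genes at an unadjusted p under 0.05. Against entinostat alone it called 0 members and 0 genes (0%), with 0 members and 53 genes at an unadjusted p under 0.05, and against entinostat plus anti-PD-1 0 members and 0 genes (0%), with 0 and 33. Against entinostat plus anti-CTLA-4 it also called 0 members and 0 genes (0%), with 6 members and 115 genes at an unadjusted p under 0.05. Without anti-CTLA-4 sample a, 7 members were called higher in the triple combination than in entinostat plus anti-CTLA-4, and 1 was without triple combination sample a. Leaving out triple combination sample a and vehicle sample 3 together gave 2 here, 7 in place of 5 for entinostat plus anti-PD-1 against vehicle, 5 in place of 6 for the main effect of anti-CTLA-4, and the same counts in the other 9 comparisons. The interaction of the antibodies, which asks whether anti-CTLA-4 differed in effect with and without anti-PD-1, gave 0 members and 0 genes (0%), with 3 members and 81 genes at an unadjusted p under 0.05, and 6 members without anti-CTLA-4 sample a. EdgeR and DESeq2 called 0 members in each of these 5 comparisons. For the counts with samples left out, the share of all genes called was not counted.

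The balance of activating to inhibitory Fc receptors was taken within each sample, as the log2 ratio of Fcgr3 or Fcgr4 to Fcgr2b, with 1 added to each normalized count. A scaling of the sample would cancel in this ratio but for the added count, which weighs most at low levels. The measure was chosen after the levels had been seen. Differences between groups in this ratio compare change, and its absolute size depends on the probes. The log2 ratio of Fcgr4 to Fcgr2b averaged -1.61 ± 0.81 with entinostat alone (SD, n = 4), -1.37 ± 0.67 with entinostat plus anti-PD-1 (SD, n = 4), -1.87 ± 0.42 with entinostat plus anti-CTLA-4 (SD, n = 4) and -1.73 ± 0.43 in the triple combination (SD, n = 4), against -2.06 ± 0.92 in vehicle (SD, n = 6). Each difference of a treated group from vehicle was smaller than the SD of the vehicle samples.

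Of the 8 comparisons of the Fcgr3 and Fcgr4 ratios with vehicle none passed, in exact two-sided permutation tests whose smallest possible p is 0.00952. The largest difference was that of Fcgr4 over Fcgr2b in entinostat plus anti-PD-1, 0.68 log2 units (exact permutation p = 0.248, adjusted over the 8 tests 0.787). For Fcgr3 over Fcgr2b the differences from vehicle ran from -0.22 in the triple combination to 0.51 in entinostat plus anti-PD-1 (adjusted p = 0.787 for both, exact permutation).

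**Figure D3:**
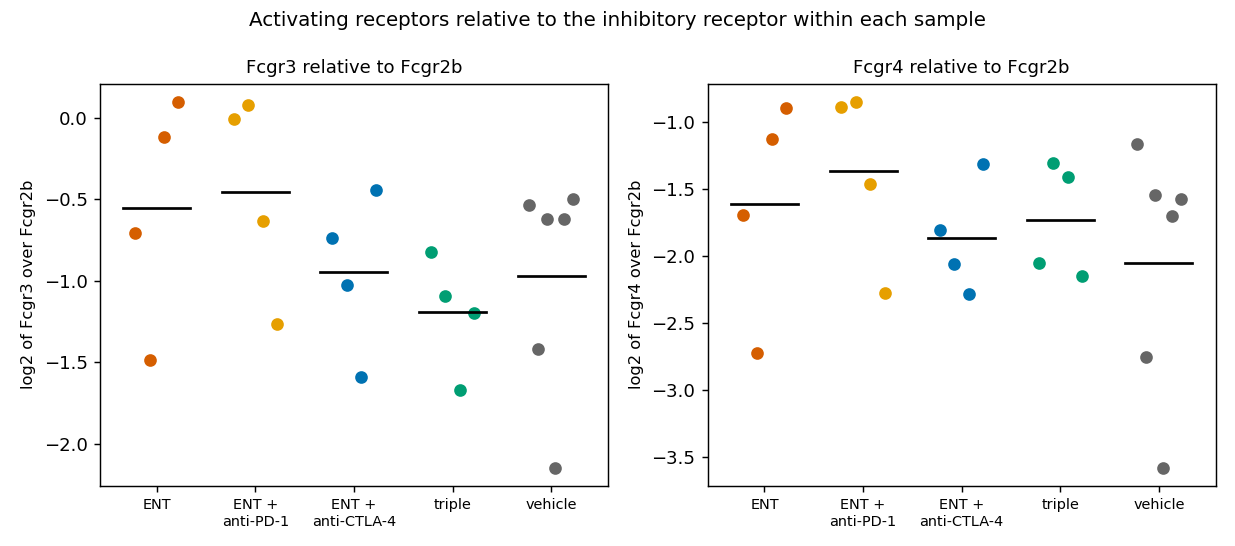
Log2 ratio of Fcgr3 and of Fcgr4 to Fcgr2b (y axes) in each sample of the 5 groups. Points are samples, black lines are group means, and ENT is entinostat. In vehicle 2 samples lie far below the other 4, and the treated groups overlap the vehicle range in both panels.

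Across the 22 samples the 9 transcripts varied together, and Fcgr2b and Fcgr1 less than the rest. Of the 36 pairs of members the Pearson r of log2 levels ran from 0.72 to 0.99, with a median of 0.91, where the median over all 87990 pairs of tested genes was 0.21. It was 0.90 to 0.99 in the 21 pairs without Fcgr1 and Fcgr2b, and 0.72 to 0.87 in the 15 pairs with one of them. These correlations describe 22 samples that share groups, scaling and cell isolation.

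The genes most like Fcgr2b over the 22 samples were C1qb, C1qa and C1qc (r = 0.97, 0.96 and 0.96, Spearman rho 0.96, 0.95 and 0.96), the chains of complement C1q made by macrophages. With group means removed the r values were 0.96, 0.97 and 0.97. The samples with most Fcgr2b were those with most C1qa, which stood at 803 normalized counts in entinostat sample 2, 898 in entinostat plus anti-PD-1 sample 4 and 821 in triple combination sample 2, and at 900.4 and 853 in vehicle samples 2 and 3. In the other vehicle samples C1qa was between 91.6 and 137. Fcgr1 was most like Ccl6, Ccl9 and Tlr2 (r = 0.92, 0.91 and 0.89), Ccl6 and Ccl9 being chemokines of myeloid cells.

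The other members had other partners. Among the genes most like Tyrobp were Laptm5 and Ptprc (r = 0.99 for both), and among those most like Clec7a were Tyrobp and Ptprc (r = 0.99 and 0.98). For Fcgr3 they included Itgam and Fpr2 (r = 0.97 for both), and for Fcgr4 they were Hgf, Syk and Olr1 (r = 0.95 for each). For Sirpa they included Laptm5 and Tgm2 (r = 0.98 for both), for Syk Il10ra and Vav1 (r = 0.99 and 0.98), and for Btk Cd84 and Slc16a6 (r = 0.94 and 0.93). Ptprc and Laptm5, both expressed across leukocytes, were thus each among the partners of 2 members.

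**Figure D4:**
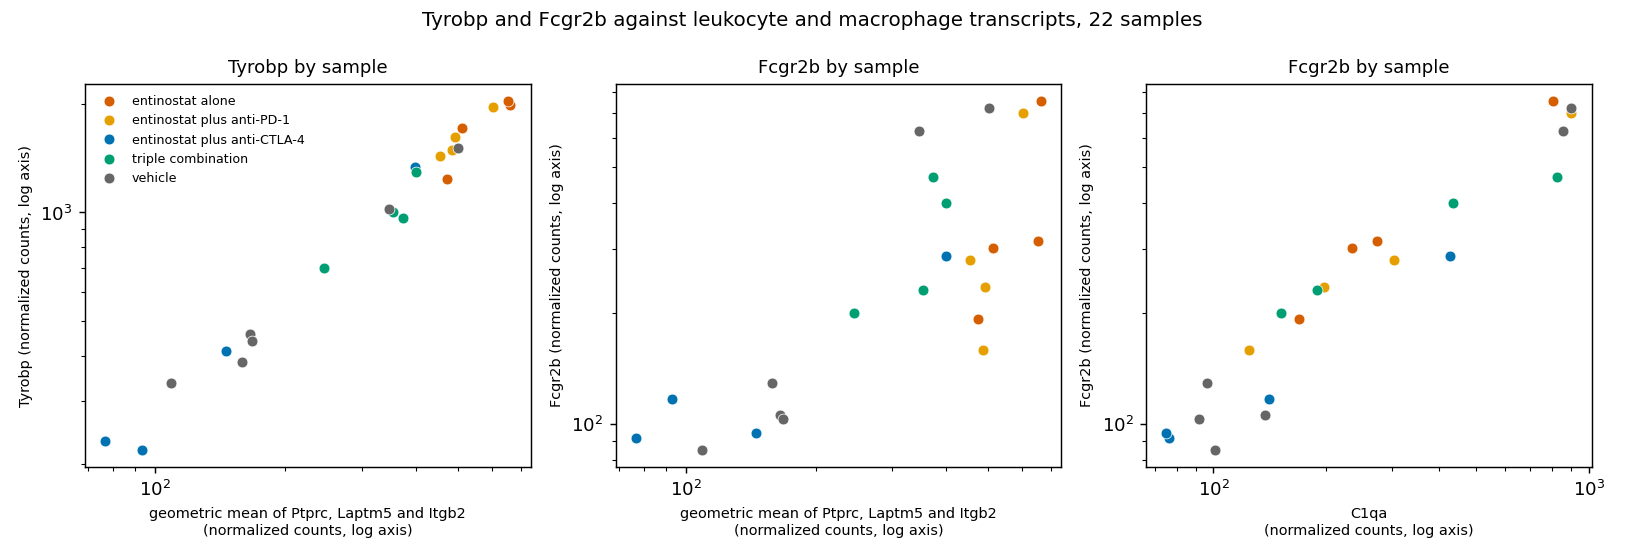
Tyrobp against the geometric mean of Ptprc, Laptm5 and Itgb2, Fcgr2b against the same mean, and Fcgr2b against C1qa, in normalized counts on log axes. Each point is 1 of the 22 samples, coloured by group. Tyrobp follows the pan-leukocyte mean closely (r = 0.99), whereas Fcgr2b scatters about it (r = 0.80) and follows C1qa (r = 0.96).

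Against the mean log2 level of the pan-leukocyte genes Ptprc, Laptm5 and Itgb2 the members had r values from 0.74 for Fcgr1 and 0.80 for Fcgr2b to 0.99 for Tyrobp (n = 22), and from 0.68 to 0.99 without the 2 samples farthest from the median of that mean. Against Cdh1 the r values were all negative, from -0.71 for Fcgr2b to -0.89 for Fcgr3. Leukocyte signal thus moved with every member and the epithelial gene Cdh1 moved against every member. The part of both in the differences between treatments was not tested.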

How the data were processed

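The deposited values are normalized counts (signal, linear scale) that the authors made for 655 endogenous genes, 20 housekeeping genes and 14 controls in 22 samples. How they were normalized is not given in the sources used here. Limma is named, with no role, in the submitters' processing notes. The values up to 200 were, for 100% of them in every sample, a whole number (within 0.1) of steps of 1 size, which gave back the barcode counts used for depth, for edgeR 4.0.16 (quasi-likelihood) and for DESeq2 1.42.0 as alternatives. The main test was limma 3.58.1 in R 4.3.3 on log2(normalized count + 1), with 5 group means in 1 fit of 22 samples and 12 comparisons. A gene was tested when the mean of its log2 values in at least 1 group exceeded the background limit, and 235 were not. No background was subtracted. The groups come from the sample titles. In 2 groups 1 numbered name stands on 2 columns, which leaves the group known and not the sample, and these columns are called a and b. Permutation tests used scipy 1.17.1. On simulated data for entinostat against vehicle, 200 of 420 genes were shifted. Limma found 80% of those shifted by 1 log2 unit and 98% of those shifted by 2, with 4 false calls among 182. How far these shares hold for the 9 members, whose levels varied together, was not tested. The 9 members are always named. Of each pathway list, up to 4 genes with the smallest p in a comparison with a call could be named, and for each member the 3 genes of highest Pearson r, some of which are not reported here. The members, lists and tests were chosen with earlier results of these data known. The Fc receptor ratios were added after the levels had been seen. The sequences are RefSeq's (GRCm38.p6), and no protein sequence was used.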

Additional observations from a re-analysis of the deposited data

Results flagged for a closer look

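In 45 sets of member levels, 9 genes in 5 groups on the log2 scale, a sample far from the rest of its group was found 2 times, and chance alone gives about 1 in 20. Both were sample 4 of entinostat plus anti-PD-1, the highest of its group. For Sirpa, at 474 normalized counts, the gap to the next sample was 0.837 of the range of the group, and for Syk, at 449.7, it was 0.841. The interaction of the antibodies, the test of a difference in effect between groups, called 0 members.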

How the results depend on the processing

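Low counts near background limit Fcgr1 and Btk most. The counts of members called moved by more than 1.5 times as follows, and the other alternatives run kept them within that range. The share of all genes called was not counted under the alternatives. The pan-leukocyte genes and Cdh1 themselves changed with entinostat alone, and with anti-CTLA-4 added to it. Adjusting on them therefore cannot tell scaling from treatment. Entinostat alone against vehicle gave 7, and 0 under pan-leukocyte centring or with Cdh1 as a covariate, 1 without vehicle samples V1 and V2, and 4 with edgeR and TMM factors or with DESeq2. Entinostat plus anti-PD-1 against vehicle gave 5, and 0 without the filter on low genes, under pan-leukocyte centring, with Cdh1 as a covariate, with the cartridge as a block, within the first cartridge, without V1 and V2 or in edgeR with the deposited scaling, 2 with the replicate block and 9 with sample weights. Entinostat plus anti-CTLA-4 against entinostat alone gave 7, and 0 under pan-leukocyte centring or with Cdh1. Against entinostat plus anti-PD-1 it gave 6 lower, and under pan-leukocyte centring 0 lower and 1 higher, Sirpa, 3 with Cdh1, 0 with only the groups compared and 0 with the cartridge as a block. The main effect of anti-CTLA-4 gave 6, and 0 under pan-leukocyte centring, with Cdh1 or with the cartridge as a block. The comparisons with no call gave calls with sample weights, 6 for the triple combination against vehicle, 5 against entinostat alone, 8 against entinostat plus anti-CTLA-4 and 8 for the interaction. With the replicate block over 16 numbered samples the triple combination against entinostat plus anti-CTLA-4 gave 3 and the interaction 1, against 8 and 6 in the same samples with no replicate block. Same-numbered samples had correlations of deviations from -0.54 to 0.53 (median -0.07 over 24 pairs). These values show no sign that the numbers pair the samples, and they cannot exclude it. With vehicle sample 3 and triple combination sample a, whose lanes lie among each other's groups, both left out, the triple combination against entinostat plus anti-CTLA-4 gave 2. Leaving out single samples gave 3 to 7 for entinostat alone against vehicle, 0 to 7 for entinostat plus anti-PD-1 against vehicle, 0 to 7 for the triple combination against entinostat plus anti-CTLA-4, 3 to 7 for entinostat plus anti-CTLA-4 against entinostat plus anti-PD-1 and 0 to 6 for the interaction.

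For entinostat plus anti-CTLA-4 minus entinostat plus anti-PD-1, pan-leukocyte centring made Sirpa higher where it had been lower, at 0.45 (adjusted p = 0.0414). In the 4 comparisons with vehicle and in entinostat plus anti-CTLA-4 minus entinostat alone, log2 fold changes turned as follows, none of them passing the test. Under pan-leukocyte centring entinostat alone minus vehicle was -0.71 for Fcgr1, -0.63 for Fcgr2b, -0.21 for Fcgr3, -0.19 for Fcgr4 and -0.27 for Sirpa. Entinostat plus anti-PD-1 minus vehicle was -0.70 for Fcgr1, -0.68 for Fcgr2b, -0.17 for Fcgr3, -0.0012 for Fcgr4 and -0.30 for Sirpa. Entinostat plus anti-CTLA-4 minus vehicle was 0.031 for Fcgr1, 0.16 for Fcgr4, 0.12 for Clec7a, 0.15 for Sirpa, 0.035 for Tyrobp and 0.037 for Syk. The triple combination minus vehicle was -0.12 for Fcgr1, -0.044 for Fcgr2b, -0.27 for Fcgr3 and -0.22 for Sirpa. Entinostat plus anti-CTLA-4 minus entinostat alone was 0.74 for Fcgr1, 0.60 for Fcgr2b, 0.20 for Fcgr3, 0.34 for Fcgr4, 0.42 for Sirpa and 0.34 for Btk. With Cdh1 as a covariate entinostat alone minus vehicle was -0.71 for Fcgr1 and -0.37 for Fcgr2b, entinostat plus anti-PD-1 minus vehicle -0.42 for Fcgr1 and -0.22 for Fcgr2b, and entinostat plus anti-CTLA-4 minus entinostat alone 0.37 for Fcgr1. With quantile normalization Fcgr1 was -0.17 in entinostat alone minus vehicle, -0.037 in entinostat plus anti-PD-1 minus vehicle and 0.089 in entinostat plus anti-CTLA-4 minus entinostat alone. With edgeR and TMM factors entinostat alone minus vehicle was -0.089 for Fcgr1 and -0.15 for Fcgr2b, and Fcgr2b was -0.053 in entinostat plus anti-PD-1 minus vehicle and -0.076 in the triple combination minus vehicle. With DESeq2 Fcgr2b was -0.016 in entinostat alone minus vehicle and -0.015 in the triple combination minus vehicle. Btk in entinostat plus anti-CTLA-4 minus vehicle was -0.13 with sample weights, -0.29 with the replicate block, -0.49 in the same samples without it, -0.13 without V1 and V2, and -0.44 to 0.44 leaving out single samples. Fcgr1 in the triple combination minus vehicle was -0.024 to 1.05 leaving out single samples. In alternatives chosen after seeing the data, the ratios to Fcgr2b in entinostat plus anti-CTLA-4 minus vehicle turned to -0.21 for Fcgr3 and -0.12 for Fcgr4 when vehicle sample 3 and triple combination sample a were left out. Leaving out single samples they ran from -0.21 to 0.24 for Fcgr3 and from -0.12 to 0.37 for Fcgr4. The cause of these changes was not tested.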
